A study of Nicotiana tabacum with 8 samples.

Results

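The 10 genes described here belong to the steps at which a plant cell makes, takes up and perceives the hormone auxin. They are 4 auxin influx carriers (LAX1, LAX2, LAX3 and LAX5), 3 auxin receptors (TIR1, AFB6 and AFB4) and 3 genes of the YUCCA type (FZY1, FZY2 and FZY3). They were chosen by their tomato gene numbers out of the 34725 tomato coding sequences listed for each library, and all 10 were found. Their names are those with which the set was defined, as the deposited tables give gene numbers only.

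RNA was sequenced from shoot tips (apical meristem and terminal leaves) of tobacco (Nicotiana tabacum) cultivar Samsun in 8 libraries. The 4 control libraries (numbered 9 to 12 in the labels) came from seedlings cultured without a fungus. The 4 exposed libraries (13 to 16) came from seedlings that shared the air of their vessel with a culture of Cladosporium sphaerospermum strain TC09 and so received its microbial volatile organic compounds (MVOCs). Both groups were unmodified seedlings, 6 days old when moved to closed vessels of sucrose-containing MS medium, with 3 seedlings per vessel, and both were sampled 10 days later. The labels describe a library as the pooled tips of a vessel and the paper describes it as a plant, so if the paper is right some libraries of a group may have shared a vessel. The p-values therefore measure the spread between these libraries. The treatment text of the labels reads as culture without exposure for all 8, and the groups follow the exposure tag.

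Tobacco reads were counted on tomato genes, and related tobacco copies may be summed in 1 number. Total gene reads ranged from 7853857 to 9365844 in the control and from 8129933 to 9674090 in the exposed libraries. Of 19325 genes that passed edgeR's filter on low counts, 1847 (9.56%) were higher and 2317 (12%) were lower after exposure (adjusted p no greater than 0.05). Exposed library 14 stood apart, as the number of calls over all genes was 5438 without it, against 4164 with it. Among the 10 genes it was the highest or the lowest of its group in 8, as control library 10 was in its own group. The tissue label was not checked against marker genes, because the gene numbers of such markers come without names. In a whole shoot tip a larger share of cells that use a gene cannot be told apart from more RNA per cell.

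Auxin (indole-3-acetic acid) is made largely from tryptophan, and YUCCA enzymes, flavin monooxygenases that convert indole-3-pyruvate, carry out the last step. FLOOZY, abbreviated FZY, is the petunia name for this family. AUX1/LAX proteins are plasma membrane permeases that bring auxin into the cell together with protons, and in the shoot apex of Arabidopsis they help to position new leaves. TIR1 and its AFB relatives are F-box proteins of a ubiquitin ligase. With auxin bound they capture Aux/IAA repressors for breakdown, which frees the auxin response factors (ARFs) that act on target genes.

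After exposure to TC09, 3 of the 4 influx carriers were higher, while none of the 3 receptors and none of the 3 YUCCA-type genes passed the test in either direction (edgeR, adjusted p of 0.05 or less over all 19325 genes). All 10 genes passed the filter on low counts. The 3 of 10 that were higher stand beside 9.56% of all genes tested, and the 0 of 10 that were lower beside 12%. At an unadjusted p under 0.05, 4 of the 10 were higher (16.9% of all genes tested) and 0 lower (18.5%). Limma-voom gave 3 higher (9.21% of all genes) and 0 lower (12%), and DESeq2 gave 3 higher (10.6%) and 0 lower (12.8%). The median log2 fold change was 0.32 over the 10 genes and 0.57 over the 4 carriers, against 0.01 over all genes tested. The groups were fully apart, with all exposed libraries above all controls, in 2 of the 10 genes, LAX1 and LAX5, as was the case in 11.5% of all genes tested. Without control library 9 or 11 or exposed library 13 or 15 the number of higher genes among the 10 was 1, as LAX1 and LAX2 no longer passed. In the same fits the number of higher genes over the whole table went from 1847 to 1148, 1180, 1185 and 1353, and the log2 fold changes were 0.50 to 0.63 for LAX1 and 0.47 to 0.52 for LAX2.

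**Figure D1:**
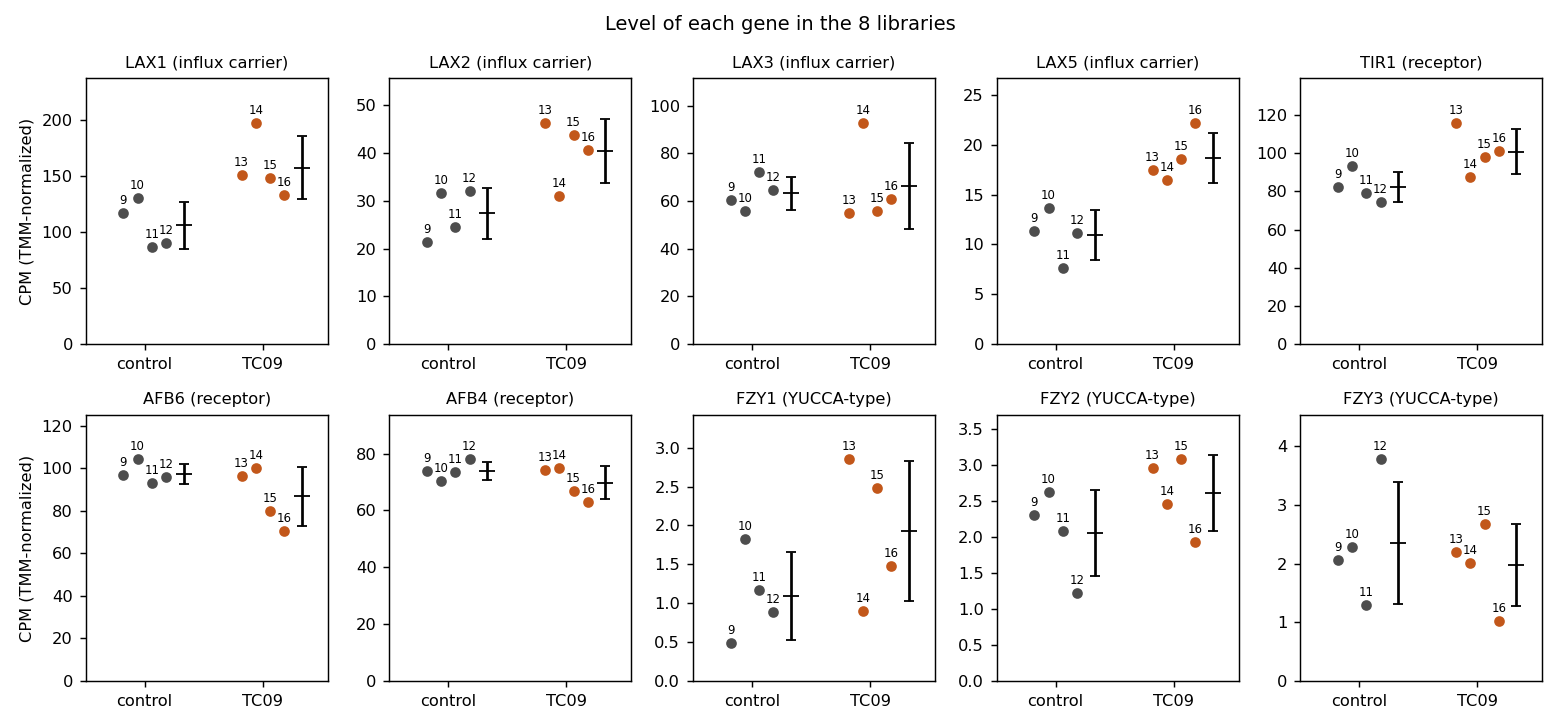
Level of each gene in counts per 1e6 reads (CPM, TMM-normalized, vertical axis from 0) in the 4 control and 4 TC09-exposed libraries; points carry the library number, and bars give the mean ± SD of each group. The groups are apart in LAX1 and LAX5 and overlap in the other 8 genes, and library 14 lies at 92.8 CPM in LAX3, above the other exposed libraries.

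The carrier LAX1 (Solyc09g014380, on tomato chromosome 9 by its gene number, coding length 1236 bp) had the most mapped reads of the 10 genes. Its normalized level was 117, 130.2, 87.1 and 90.2 CPM in control libraries 9 to 12 and 151, 198, 149 and 133 CPM in exposed libraries 13 to 16. The lowest exposed library was just above the highest control library, and library 14 was the highest of all. LAX1 rose from 106 ± 20.9 CPM in the control to 157 ± 27.8 CPM (SD, n = 4 each) after exposure, 1.48-fold with a 95% interval of 1.16 to 1.90 (edgeR, 0.57 ± 0.160 as log2 fold change with its standard error, adjusted p = 0.0296). Its log2 fold change lay between 0.44 and 0.69 in each alternative fit, but the adjusted p went past the threshold without control library 9, 11 or 12 (0.0509, 0.0804 and 0.0785) or exposed library 13 or 15 (0.0576 and 0.0528 in edgeR; range 0.00735 to 0.0804 over the alternatives).

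LAX5 (Solyc10g055260, chromosome 10, 1473 bp) had the fewest mapped reads of the carriers and the largest change among the genes that passed the test. It was at 11.4, 13.7, 7.67 and 11.1 CPM in the control and at 17.4, 16.5, 18.6 and 22.2 CPM in the exposed libraries. The groups did not overlap. LAX5 rose from 10.96 ± 2.48 CPM in the control to 18.7 ± 2.52 CPM (SD, n = 4 each), 1.70-fold with a 95% interval of 1.30 to 2.21 (edgeR, 0.76 ± 0.172 as log2 fold change with its standard error, adjusted p = 0.0119). It was the only one of the 10 genes that passed at 0.05 in all 14 alternative fits, with an adjusted p of 0.000762 to 0.0305.

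LAX2 (Solyc01g111310, chromosome 1, 1485 bp) was intermediate in level. It was at 21.3, 31.6, 24.6 and 32.0 CPM in the control and at 46.4, 31.1, 43.9 and 40.6 CPM in the exposed libraries. Library 14 fell within the control range, and the other exposed libraries lay above it. LAX2 rose from 27.4 ± 5.28 CPM in the control to 40.5 ± 6.68 CPM (SD, n = 4 each), 1.48-fold with a 95% interval of 1.15 to 1.89 (edgeR, 0.56 ± 0.160 as log2 fold change with its standard error, adjusted p = 0.0313). Without library 14 its log2 fold change was 0.67 (adjusted p = 0.00769). Its log2 fold change stayed between 0.47 and 0.67 in each alternative fit, but the adjusted p went past the threshold without control library 9 or 11 (0.0770 and 0.0802) or exposed library 13, 15 or 16 (0.0880, 0.0783 and 0.0513 in edgeR; range 0.00769 to 0.0880 over the alternatives).

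LAX3 (Solyc11g013310, chromosome 11, 1407 bp), next to LAX1 in mapped reads among the carriers, did not pass the test. Its control libraries had 60.3, 55.9, 72.1 and 64.5 CPM and its exposed libraries 54.9, 92.8, 55.9 and 61.0 CPM. All exposed libraries except library 14 lay within or below the control range. The means were 63.2 ± 6.90 CPM and 66.1 ± 17.96 CPM (SD, n = 4 each), and the log2 fold change with its standard error was 0.06 ± 0.166 (edgeR, adjusted p = 0.813). The 95% interval of the fold ran from 0.810 to 1.35. Without library 14 the log2 fold change was -0.14 (adjusted p = 0.318).

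Because the other carriers passed the test and LAX3 did not, the carriers were also compared with each other inside each library, where the scaling of libraries cancels out. The log2 ratio of LAX1 to LAX3 reads was 0.73 ± 0.43 in the control and 1.27 ± 0.19 in the exposed libraries (SD, n = 4 each), a shift of 0.54 (exact permutation test, two-sided, p = 0.0857, adjusted p = 0.257). The log2 ratio of LAX3 to LAX5 reads shifted by -0.75 (exact permutation p = 0.0857, adjusted p = 0.257), and that of LAX2 to LAX3 by 0.53 (exact permutation p = 0.2, adjusted p = 0.4). The ratio of LAX1 to LAX2 shifted by only 0.0062, beside SDs of 0.40 and 0.47. In all, 12 pairs inside the 3 roles were compared, with p-values adjusted over them. The smallest p that 4 libraries against 4 can give is 0.0286, which for a pair that reached it alone becomes 0.343 after adjustment. The adjusted p-values therefore do not show whether LAX3 differed from the other carriers. The same limit holds for the receptor and YUCCA-type pairs below.

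**Figure D2:**
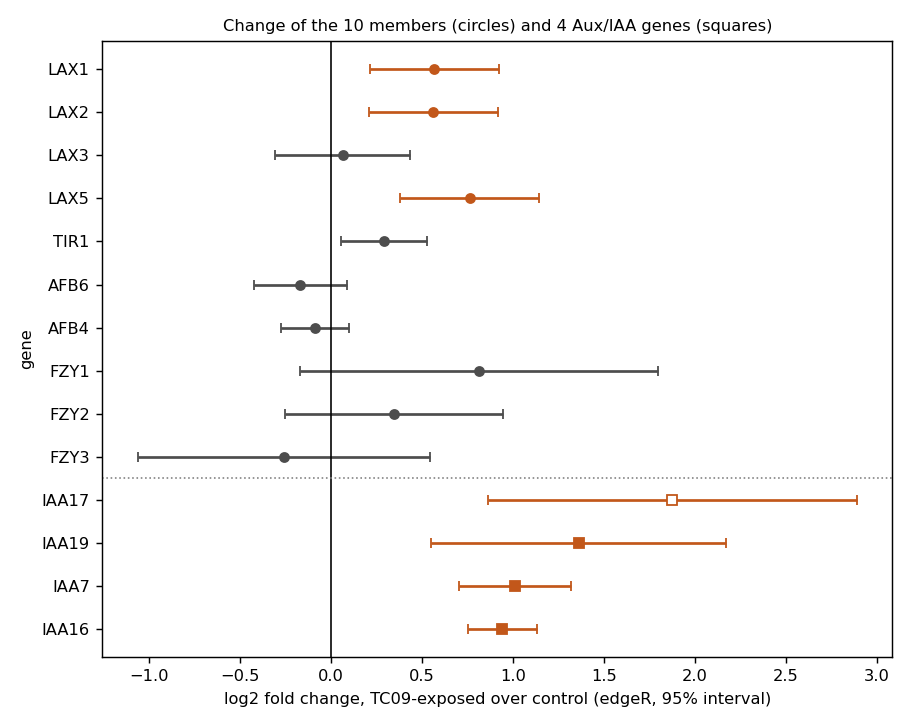
Log2 fold change of TC09-exposed over control (horizontal axis) with its 95% interval for the 10 genes (circles) and 4 Aux/IAA genes named in the paper (squares), orange where the adjusted p was 0.05 or less and grey otherwise; the open square is IAA17, from the fit without the filter. The carriers LAX1, LAX2 and LAX5 lie between 0.56 and 0.76, the receptors between -0.17 and 0.29, and the 4 Aux/IAA genes at 0.94 or more. The paper chose those 4 from these same libraries.

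None of the 3 receptors passed the test. TIR1 (Solyc09g074520, chromosome 9, 1746 bp) was at 82.3, 93.1, 79.4 and 74.3 CPM in the control and at 116, 87.5, 98.0 and 101 CPM in the exposed libraries. Only exposed library 14 fell below the highest control library. The mean was 82.3 ± 7.94 CPM in the control and 101 ± 11.8 CPM in the exposed libraries (SD, n = 4 each), a ratio of 1.22 with a 95% interval of 1.04 to 1.44, which like all intervals here is not adjusted for the number of genes. The log2 fold change of 0.29 (standard error 0.107) had an adjusted p of 0.0780 (edgeR), short of the threshold. TIR1 passed without exposed library 14 (adjusted p = 0.0269), without control library 10 (0.0464) and with scaling by total library size only (0.0161 in edgeR; range 0.0161 to 0.206 over the alternatives). That last scaling shifts all genes, whose median log2 fold change went from 0.01 to 0.11 with it.

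**Figure D3:**
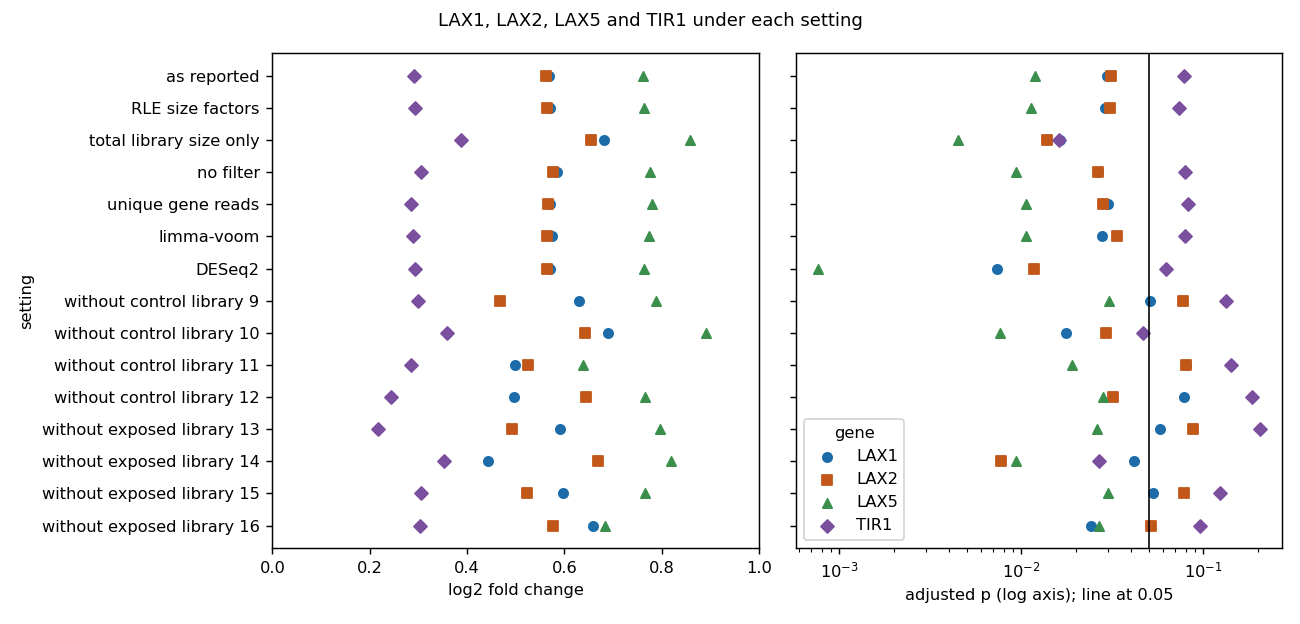
Log2 fold change (left) and adjusted p (right, log axis, line at 0.05) of LAX1, LAX2, LAX5 and TIR1 as reported and under 14 alternative fits. LAX5 stays left of the line in every fit, up to 0.0305, and LAX1, LAX2 and TIR1 cross it in some fits while their log2 fold changes stay above 0.

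AFB6 (Solyc02g079190, chromosome 2, 1764 bp) was at 96.8, 104, 92.9 and 95.6 CPM in the control and at 96.2, 100.2, 79.9 and 70.5 CPM in the exposed libraries. Exposed libraries 13 and 14 lay in the narrow control range and libraries 15 and 16 below it. Its log2 fold change with standard error was -0.17 ± 0.115 (edgeR, adjusted p = 0.326), and the 95% interval of the fold ran from 0.746 to 1.06.

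AFB4 (Solyc04g074980, chromosome 4, 1872 bp) belongs to the receptor branch that in Arabidopsis responds to the herbicide picloram. It had 73.8, 70.5, 73.6 and 78.0 CPM in the control and 74.2, 75.1, 66.7 and 63.0 CPM in the exposed libraries. The groups overlapped, with libraries 15 and 16 again the lowest. Its log2 fold change with standard error was -0.08 ± 0.085 (edgeR, adjusted p = 0.508), and it had the narrowest interval of the 10 genes, from 0.828 to 1.07 as a fold.

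Inside libraries, the log2 ratio of TIR1 to AFB6 reads went from -0.25 ± 0.085 to 0.22 ± 0.30, and that of TIR1 to AFB4 from 0.15 ± 0.19 to 0.53 ± 0.21 (SD, n = 4 each). Both shifts, 0.47 and 0.38, had an exact permutation p of 0.0571 (adjusted p = 0.257). The ratio of AFB6 to AFB4 shifted by -0.093 (exact permutation p = 0.343, adjusted p = 0.48).

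The YUCCA-type genes had few reads, 4 to 34 per library, and none of the 3 passed the test. FZY1 (Solyc06g065630, chromosome 6, 1233 bp) had 4, 16, 9 and 8 reads in the control and 26, 8, 25 and 13 in the exposed libraries. Libraries 13 and 15 lay above all controls and library 14 lay among them. Its ratio of 1.76 had a 95% interval of 0.889 to 3.48 (edgeR, 0.81 ± 0.444 as log2 fold change with its standard error, adjusted p = 0.219), so the interval holds both an unchanged level and the 1.70-fold of LAX5.

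FZY2 (Solyc08g068160, chromosome 8, 1236 bp) had 19, 23, 16 and 11 reads in the control and 27, 22, 31 and 17 in the exposed libraries. The groups overlapped, with libraries 13 and 15 again the highest. The ratio was 1.27 with a 95% interval of 0.840 to 1.93 (adjusted p = 0.386, edgeR).

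FZY3 (Solyc09g091090, chromosome 9, 1296 bp) had 17, 20, 10 and 34 reads in the control and 20, 18, 27 and 9 in the exposed libraries. Its highest value was a control library, number 12. Its log2 fold change with standard error, -0.26 ± 0.361 (edgeR, adjusted p = 0.650), turned to 0.070 without that library. The log2 ratios between the 3 genes inside libraries shifted by 0.43 to 1.02 (exact permutation p of 0.171 to 0.457 for the 3 pairs, adjusted p of 0.4 to 0.499).

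Levels of different genes were compared per length, for which the authors' TPM was used. TPM lacks the TMM scaling of the test, so the changes between groups are those given above from CPM and edgeR. AFB4, for example, had a higher mean TPM after exposure but a log2 fold change of -0.08. TPM does not correct for how readily tobacco reads map to each tomato gene, or for how many tobacco copies are summed in it. The order and ratios between genes are therefore those of mapped reads per length, and may differ from the order of RNA abundance. The order in the control libraries was LAX1 (77.5 ± 12.1 TPM), AFB6 (50.1 ± 1.39), TIR1 (42.7 ± 2.50), LAX3 (40.9 ± 5.92), AFB4 (35.9 ± 2.89), LAX2 (16.8 ± 3.38), LAX5 (6.73 ± 1.35), FZY3 (1.66 ± 0.779), FZY2 (1.50 ± 0.391) and FZY1 (0.800 ± 0.391; SD, n = 4 each). Of the 9 neighbouring pairs in this order 5 did not overlap, but TIR1 and LAX3 were not ordered (TIR1 higher in 2 of 4), nor were FZY3 and FZY2 (FZY3 higher in 1 of 4). The ranges of LAX3 and AFB4 and those of FZY2 and FZY1 overlapped, although the first of each pair was higher in 4 of 4 libraries. The order in the exposed libraries was LAX1 (126 ± 32.2 TPM), TIR1 (56.2 ± 5.30), AFB6 (48.4 ± 10.8), LAX3 (46.6 ± 16.3), AFB4 (36.6 ± 5.46), LAX2 (26.5 ± 3.57), LAX5 (12.3 ± 0.895), FZY2 (2.07 ± 0.465), FZY1 (1.51 ± 0.695) and FZY3 (1.51 ± 0.564; SD, n = 4 each). Here AFB6 and LAX3 were not ordered, nor were FZY1 and FZY3 (the first higher in 2 of 4 libraries in each pair). TIR1 stood above AFB6 in 3 of 4 libraries, where in the control AFB6 was higher in 4 of 4.

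**Figure D4:**
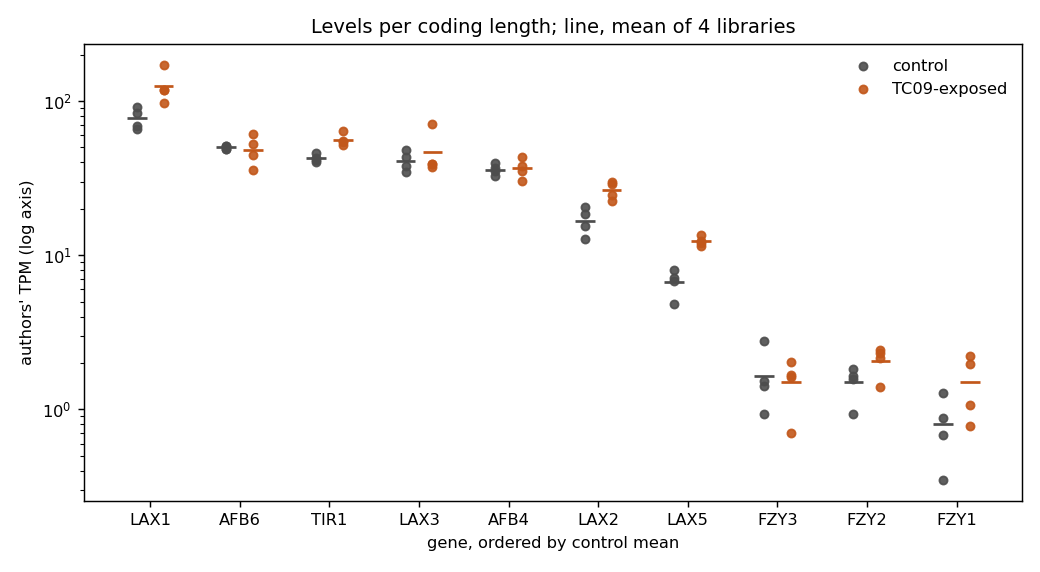
Authors' TPM of each gene (log axis) in control and TC09-exposed libraries, ordered by the control mean; points are libraries and lines are group means of 4. LAX1 leads in both groups, with means of 77.5 TPM in the control and 126 TPM after exposure. The 3 YUCCA-type genes lie lowest, with means of 0.800 to 2.07 TPM. TPM lacks the TMM scaling of the test, so the distance between groups is not the tested fold change.

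By TPM, and with the same limit on mapping, the carriers differed most in level. The control mean of LAX1 was 11.5 times that of LAX5, whereas the 3 receptors lay within 1.39 times of each other. LAX1 made up 54.4% ± 6.01 of the summed TPM of the 4 carriers in the control and 59.2% ± 2.61 in the exposed libraries, and LAX3 made up 29.1% ± 5.61 and 21.7% ± 2.95 (SD, n = 4 each). Summed on the TMM scale per kb of coding length, the carriers were at 143 to 176 CPM per kb in the control and at 193 to 258 in the exposed libraries, without overlap. The receptors were at 137 to 150.0 and at 132 to 161, and the YUCCA-type genes at 3.63 to 5.37 and at 3.54 to 6.57. These sums follow their most abundant genes. For the carriers that is LAX1, whose groups were already apart, so the gap in the sum is no further evidence. The sums were chosen after seeing the data and were not tested.

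Of the other auxin genes, 4 Aux/IAA repressors (IAA7, IAA16, IAA17 and IAA19) are described here, members of the family that TIR1/AFB receptors bind. The paper chose them from these same libraries, so neither their direction nor the size of their change is independent evidence. All 3 that passed the filter were higher (adjusted p of 0.05 or less, edgeR), as were 9.56% of all genes tested. IAA17, with 19 control reads and 77 exposed reads in all, was higher in the edgeR fit without the filter (adjusted p = 0.0181). None of the 4 overlapped between the groups, where all exposed libraries were above all controls in 11.5% of all genes tested. Genes chosen for their change in these libraries are likely to be apart. Their log2 fold changes were 0.94 (IAA16), 1.01 (IAA7), 1.36 (IAA19) and 1.88 (IAA17), above those of all 10 genes described here. IAA16 had 125 to 137 CPM in the control and 233 to 269 CPM in the exposed libraries. The call of IAA19 was lost without library 9, 11 or 16 (adjusted p = 0.0648, 0.0617 and 0.0546 in edgeR; range 0.00816 to 0.0648 over the alternatives).

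The genes whose profile over the 8 libraries was nearest to that of 1 gene of each role, the one with the highest mean TPM over all 8 libraries, were found by the root mean square difference of log2 CPM after centring. For LAX1 they were Solyc09g007060 and Solyc01g005590, at 0.086 and 0.100 log2 units, where LAX1 itself varied by 0.37 about its mean. For TIR1, whose mean of 49.4 TPM was close to the 49.2 TPM of AFB6, they were Solyc01g067750 and Solyc10g074710, at 0.0457 and 0.0461. TIR1 itself varied by 0.195. For FZY2, which was below FZY3 in the control mean, they were Solyc07g042970 and Solyc04g005580, at 0.121 and 0.131. FZY2 itself varied by 0.356 and had only 11 to 31 reads per library, few for a profile. These are the nearest of 19324 other genes over only 8 libraries and carry no names here.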

How the data were processed

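Libraries of 4 control and 4 exposed samples were used. Reads were trimmed, filtered and mapped by the authors to tomato (CLC Genomics Workbench version 10, default parameters), and no source used here gives the annotation release. The authors deposited whole-number counts (total and unique gene reads) and TPM per coding sequence. Of the reads of the 10 genes, at least 95.95% were unique in each gene. The test of total gene reads used edgeR (version 4.0.16, R 4.3.3): filterByExpr defaults (minimum count 10, total 15), TMM (factors 0.938 to 1.10), a quasi-likelihood fit with condition as its only term, and Benjamini-Hochberg adjustment. Standard errors were obtained as |log2 fold change| over the root of the F statistic, and intervals use the fit's degrees of freedom. The biological coefficient of variation was 16.5%, and the chi-square per degree of freedom between libraries of a group was 6.01 to 31.7, far from the value near 1 of a library counted again. The fit was also run on counts simulated from its own means and dispersions. The outcome is not reported here, and no result rests on it. Alternatives were RLE, total library size, no filter, unique reads, limma-voom (3.58.1), DESeq2 (1.42.0), an adjusted p of 0.01 and leaving out each library. Library numbers are not shared between groups, so no pairing was fitted. Ratios inside libraries (0.5 reads added to each count) and sums per role were chosen after seeing the data. The named genes are all 10 members, 4 Aux/IAA genes of the paper (1 further gene of that list is not reported here), and for the gene with the highest mean TPM in each role the 2 nearest profiles (log2 CPM, prior count 2). Members and lists were chosen with earlier results of these data known. No sequence is printed, as none of a matching tomato gene was used here.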

Additional observations from a re-analysis of the deposited data

Results flagged for a closer look

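In 28 groups of 4 libraries, the gap between an extreme library and its neighbour, divided by the group's range, was compared with Dixon's 95% critical value for 4 values, which chance passes in about 1 of 20 groups, and 1 library passed. For LAX3, exposed library 14 was at 92.8 CPM with a gap of 0.841 of the range. No cause was tested.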

How the results depend on the processing

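Of 140 alternative values of the log2 fold changes of the 10 genes (14 each), 124 kept their direction and their side of the threshold, 10 (5 each of LAX1 and LAX2) lost the call, 3 (TIR1) gained it and 3 changed sign. The sign changes were in genes that had not passed: LAX3 (-0.14 without exposed library 14, and -0.14 to 0.15 over the fits that leave out a library), FZY3 (0.070 without control library 12, and -0.44 to 0.070) and AFB4 (0.016 with total library size only). The number of genes called higher was 3, ranged from 1 to 4 when each library was left out, and was 0 at an adjusted p of 0.01 or less. None was called lower in any fit. A fit on 7 libraries has less information. The calls over all genes, 4164 with all libraries, were 2636, 3897, 2648 and 3217 without control libraries 9, 10, 11 and 12. They were 2741, 5438, 3090 and 3509 without exposed libraries 13, 14, 15 and 16, so they rose only without library 14. Why calls were lost or gained was not tested. IAA17 passed the filter in only some fits and gave 5 alternative values. The 3 YUCCA-type genes, at 4 to 34 reads per library, had the widest intervals of the 10 genes.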
